A study of Mus musculus with 6 samples.

Results

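The 9 genes described here are grouped under retinoic acid synthesis and retinoid binding. They are the aldehyde dehydrogenases Aldh1a1, Aldh1a2, Aldh1a3 and Aldh1a7, the retinol and retinal enzymes Rdh10 and Dhrs3, and the transport and binding genes Stra6, Rbp4 and Crabp2. All 9 were measured, of 19937 genes with a value, each through its brightest probe set on average among those assigned to that gene alone. They were chosen by the difference between NICD1 and control kidneys on these arrays, Aldh1a2 as a large rise, so their differences are given as a description and without a test. RNA of whole kidneys was hybridised to 6 arrays. The 3 NICD1 samples carry the transgenes Pax8rtTA and TREICNotch1, through which the active intracellular part of the receptor Notch1 can be induced in the tubule epithelium. The 3 control samples are wild-type littermates, labelled with a normal genotype. The inducing drug, its duration, and the age and sex of the mice are not stated in the labels, and controls with a single transgene were not analysed here. The RNA includes glomeruli, vessels, stroma and blood cells, in which the Pax8-driven transgene is not meant to act.

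Retinoic acid is the hormone-like product of vitamin A. Retinol travels in plasma on the carrier Rbp4, bound to transthyretin, and enters cells through the receptor Stra6 or, in the kidney, by uptake of filtered carrier in the proximal tubule. Rdh10 oxidises retinol to retinal, and Dhrs3 reduces retinal back to retinol. Aldh1a enzymes such as Aldh1a2 carry out the irreversible oxidation of retinal to retinoic acid. Crabp2 hands retinoic acid to nuclear receptors, heterodimers of a RAR and an RXR, which switch target genes, and Cyp26 enzymes degrade it. In the developing mouse kidney, Aldh1a2 in stromal cells supplies the retinoic acid that maintains Ret in the ureteric bud.

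RefSeq start-site windows of assembly GRCm38.p6, with 250 bases before and 50 after an annotated start, were found for 6 of the 9 genes: Aldh1a1, Aldh1a2, Aldh1a7, Dhrs3, Rbp4 and Stra6. The bases before the start are printed for 3 Aldh1a family members. They are Aldh1a2, which differed most between the groups, and the paralogs Aldh1a1 and Aldh1a7, whose printed stretches resemble each other closely next to the start. Aldh1a1 had 2 windows, and the printed one was picked because it aligns with that of Aldh1a7. The resemblance thus follows in part from that choice. Capitals mark the letters ATGCAAAT, the octamer, and CCAAT, the CCAAT box, on either strand.
Aldh1a2, chr9:71215539-71215788, plus strand: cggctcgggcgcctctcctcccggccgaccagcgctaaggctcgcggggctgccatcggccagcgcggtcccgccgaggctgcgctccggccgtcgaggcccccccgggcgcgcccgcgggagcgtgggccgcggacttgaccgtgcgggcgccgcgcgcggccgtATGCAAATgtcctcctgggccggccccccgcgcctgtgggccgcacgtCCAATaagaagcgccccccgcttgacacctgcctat
Aldh1a1, chr19:20601718-20601967, plus strand: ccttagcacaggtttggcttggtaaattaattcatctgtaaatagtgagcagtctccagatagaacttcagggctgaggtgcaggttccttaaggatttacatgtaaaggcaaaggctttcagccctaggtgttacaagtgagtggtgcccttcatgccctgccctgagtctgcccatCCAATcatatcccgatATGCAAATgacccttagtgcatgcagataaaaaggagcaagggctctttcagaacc
Aldh1a7, chr19:20727557-20727806, minus strand: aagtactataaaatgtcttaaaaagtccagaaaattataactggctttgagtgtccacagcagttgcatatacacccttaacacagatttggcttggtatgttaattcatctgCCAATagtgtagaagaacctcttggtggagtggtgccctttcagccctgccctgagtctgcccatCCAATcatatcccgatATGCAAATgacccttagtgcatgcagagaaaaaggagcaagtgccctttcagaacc

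Aldh1a2 had a stretch with 77.6% G and C before its start, against 46.4% in Aldh1a1 and 43.2% in Aldh1a7. Aldh1a1 and Aldh1a7 matched at 185 of 272 columns of a gapped alignment, or 68.0%, with 94 of the last 100 bases before the start identical and a longest shared run of 65 bases. Aldh1a2 shared no run over 10 bases with either. All 3 printed stretches held an octamer, beginning 84 bases before the start in Aldh1a2 and 56 bases before it in Aldh1a1 and in Aldh1a7. The other window of Aldh1a1 held neither an octamer nor a CCAAT box. The octamer was picked after the sequences were seen, and 1.7% of the 32851 windows of all genes hold it. In the printed stretches a CCAAT box began 36 bases before the start in Aldh1a2 and 72 bases before it in both paralogs. Aldh1a7 alone held another in its printed stretch, beginning 137 bases before the start. The CCAAT box is found in 37.4% of all windows. The letters TGGGAA, the core bound by the Notch partner RBPJ, were sought on both strands and had no match in the windows of Aldh1a2, Aldh1a1, Aldh1a7 or Rbp4, while 25.6% of all windows hold them. They occurred in 2 of the 3 windows of Dhrs3 and in 1 of the 4 of Stra6. In Stra6 they began 239 bases before the start, on the opposite strand. In Dhrs3 they began 87 bases before the start in 1 window and 147 before it in another. That second Dhrs3 window held a further match on the opposite strand, 14 bases after the start. A CCAAT box began 89 bases before the start in the first of these windows and 149 before it in the second. The matches at 87 and 147 thus appear to be 1 site in overlapping windows, whose coordinates were not compared. The letters AGGTCA, the core hexamer of retinoic acid receptor sites, had no match in any window of the 6 genes, against 16.3% of all windows. These are matches of letters in short windows and say nothing of binding.

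Depth does not apply to these values, which are log2 expression after the authors' RMA normalization, and precision is limited by 3 arrays a group. Array medians were 5.38 to 5.41 log2 in NICD1 and 5.26 to 5.29 in controls. Across genes, arrays correlated at 0.985 to 0.990 within NICD1 and at 0.991 to 0.994 within controls. Notch1 stood at 10.29, 10.30 and 9.99 in NICD1 replicates 1 to 3, against 6.66, 6.59 and 6.45 in control replicates 1 to 3, which fits the labels on every array. The Y-linked Uty ranged from 7.38 to 7.62 in NICD1 and from 7.28 to 7.51 in controls, and the X-inactivation transcript Xist from 2.86 to 3.11 in NICD1 and from 2.72 to 2.89 in controls, so both groups had the Y-linked transcript and Xist at the dim end. Of the 4 sex-linked transcripts measured, Kdm5d (0.33) and Eif2s3y (-0.24) differed most, and none was called. In controls the proximal tubule carrier Slc34a1 lay between 12.22 and 12.35. The labels call the samples replicates without naming separate animals, so p-values measure the spread between these samples only.

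Among the 4 Aldh1a genes, Aldh1a2 stood far from the others in its difference. Aldh1a2, the main embryonic source of retinoic acid, had log2 values of 9.89, 9.50 and 9.69 in NICD1 replicates 1 to 3, against 4.47, 4.67 and 4.81 in control replicates 1 to 3. Every NICD1 array lay more than 4 log2 units above every control array, while arrays of the same group lay close together. The means were 9.70 ± 0.20 in NICD1 and 4.65 ± 0.17 in controls (SD, n = 3 each), a difference of 5.04 on the log2 scale (SE 0.14) or 33.0-fold, which stands at place 3 among the rises of 19937 genes. Since control values lay under their array's median on all 3 control arrays, where RMA compresses differences, this fold may understate the change. Whole-kidney RNA cannot separate more cells with Aldh1a2 from more Aldh1a2 RNA per cell.

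Aldh1a1, the cytosolic retinaldehyde dehydrogenase of many adult tissues, had 5.62, 6.15 and 6.01 in NICD1, against 5.29, 5.45 and 5.46 in controls. The groups did not overlap, but the lowest NICD1 array was close to the highest control array. Its difference was 0.53 log2 (SE 0.14), or 1.44-fold, with an SD of 0.28 in NICD1 and 0.10 in controls. Aldh1a7, a rodent copy of Aldh1a1, had 3.48, 3.69 and 4.06 in NICD1, against 3.92, 4.21 and 3.77 in controls, so the groups overlapped (-0.22 log2, SE 0.17). On 3 of the 6 arrays its value was among the dimmest 25% of genes. Aldh1a1 and Aldh1a7 are close paralogs whose probe sets may share sequence, which was not tested, so a single value of either is uncertain to that extent. Aldh1a3, the retinaldehyde dehydrogenase of epithelia of the eye and nose, had 5.001, 5.08 and 5.24 in NICD1, against 5.07, 4.99 and 4.79 in controls. These groups overlapped too (0.16 log2, SE 0.12), and all 6 values lay under the median of their array.

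**Figure D1:**
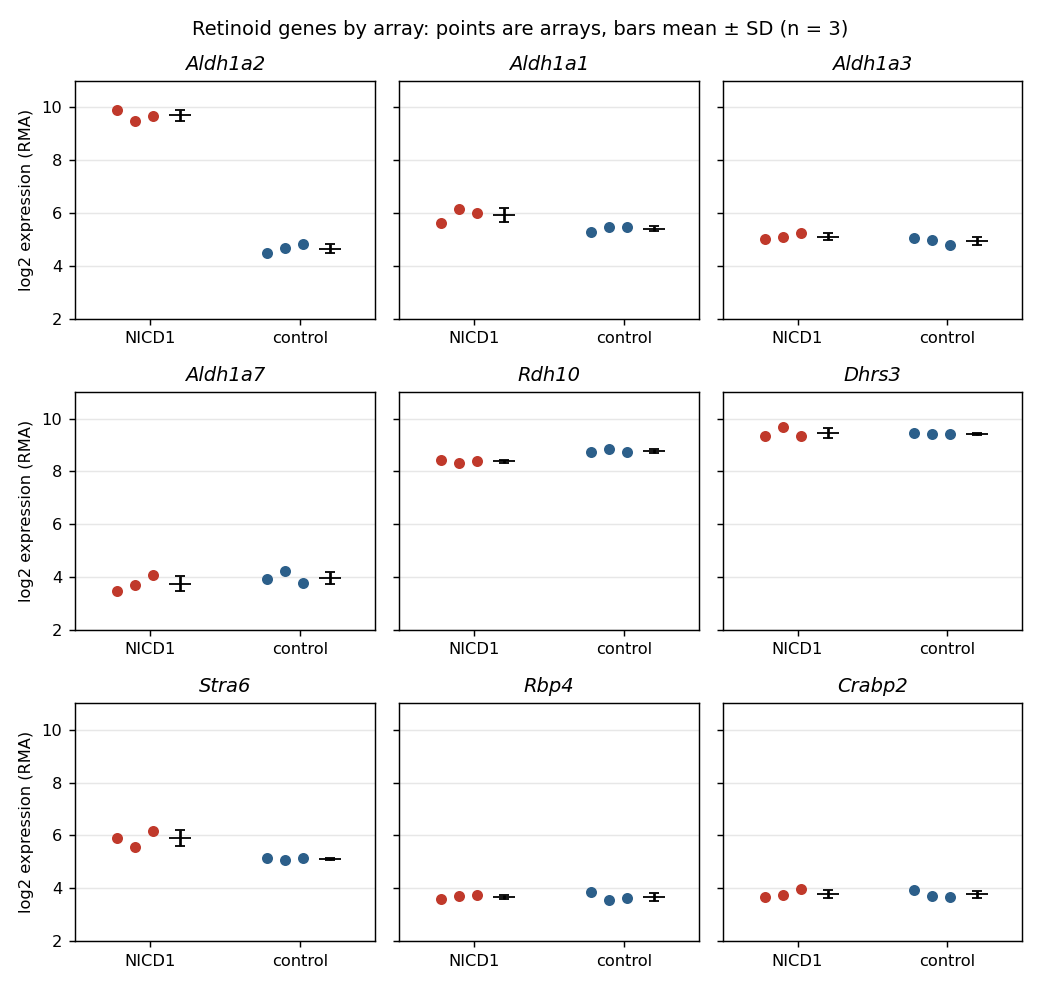
Log2 expression of the 9 retinoid genes on each array, with NICD1 on the left and control on the right of each panel. Points are arrays and bars the mean ± SD (n = 3 each). Aldh1a2 alone is separated by more than 1 log2 unit, at 9.50 to 9.89 in NICD1 against 4.47 to 4.81 in control.

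The enzymes that pass retinol and retinal back and forth differed little. Rdh10, which makes the retinal used by Aldh1a2, had 8.42, 8.32 and 8.41 in NICD1, against 8.73, 8.85 and 8.73 in controls. All NICD1 arrays were lower, by 0.38 log2 on average (difference -0.38, SE 0.10, 1.31-fold), and the SDs were small at 0.05 in NICD1 and 0.07 in controls. Dhrs3, which returns retinal to retinol, had 9.34, 9.68 and 9.35 in NICD1, against 9.45, 9.41 and 9.40 in controls. Its control arrays agreed to 0.03 log2 (SD) and its NICD1 arrays, with replicate 2 high, to 0.19, and the difference was 0.04 (SE 0.12). The scaling of arrays mattered for this pair: after quantile normalization the difference was -0.13 for Rdh10 and 0.46 for Dhrs3, and after centring each array on its median -0.51 for Rdh10 and -0.08 for Dhrs3.

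Of the uptake and binding genes, Stra6 was the one with separate groups. Stra6, the cell-surface receptor for the Rbp4 carrier, had 5.91, 5.57 and 6.18 in NICD1, against 5.13, 5.07 and 5.15 in controls. NICD1 arrays were higher throughout and spread over a wider range (SD 0.30 in NICD1 and 0.04 in controls), with a difference of 0.77 log2 (SE 0.15), or 1.71-fold. Rbp4, the plasma carrier itself, had 3.57, 3.69 and 3.73 in NICD1, against 3.85, 3.56 and 3.61 in controls. Crabp2, which delivers retinoic acid to its receptors, had 3.66, 3.73 and 3.96 in NICD1, against 3.91, 3.71 and 3.66 in controls. The groups overlapped for both, with differences of -0.01 for Rbp4 (SE 0.11) and 0.02 for Crabp2 (SE 0.12). Rbp4 was among the dimmest 25% of genes on 5 arrays and Crabp2 on 4, so a difference may go unseen at these levels.

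Across the 9 genes the differences ran from -0.38 to 5.04 log2, with a median of 0.04, against a median of 0.015 over all genes tested. The groups did not overlap for 4 of the 9 genes, Aldh1a2, Stra6 and Aldh1a1 with NICD1 higher and Rdh10 with NICD1 lower, where 43.4% of all genes had groups that did not overlap, 23.7% with NICD1 higher and 19.7% with NICD1 lower. The same 4 passed an adjusted p of 0.05 in the limma fit over all genes, and 32.7% of all genes did, 17.8% as higher and 14.9% as lower. Aldh1a1 did not pass after median centring or quantile normalization, or without NICD1 replicate 2, NICD1 replicate 3 or control replicate 1. Rdh10 did not pass after quantile normalization or without control replicate 2. Dhrs3, not among the 4, passed as higher after quantile normalization (0.46). Since the genes were chosen with this contrast in view, these counts are no test and nothing is read from them. Centring each array on its median lowered every difference by 0.12 log2 and moved the split of calls over all genes from 3551 higher and 2978 lower to 2594 higher and 3990 lower. After it, the difference was 4.92 for Aldh1a2, 0.65 for Stra6 and 0.41 for Aldh1a1.

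**Figure D2:**
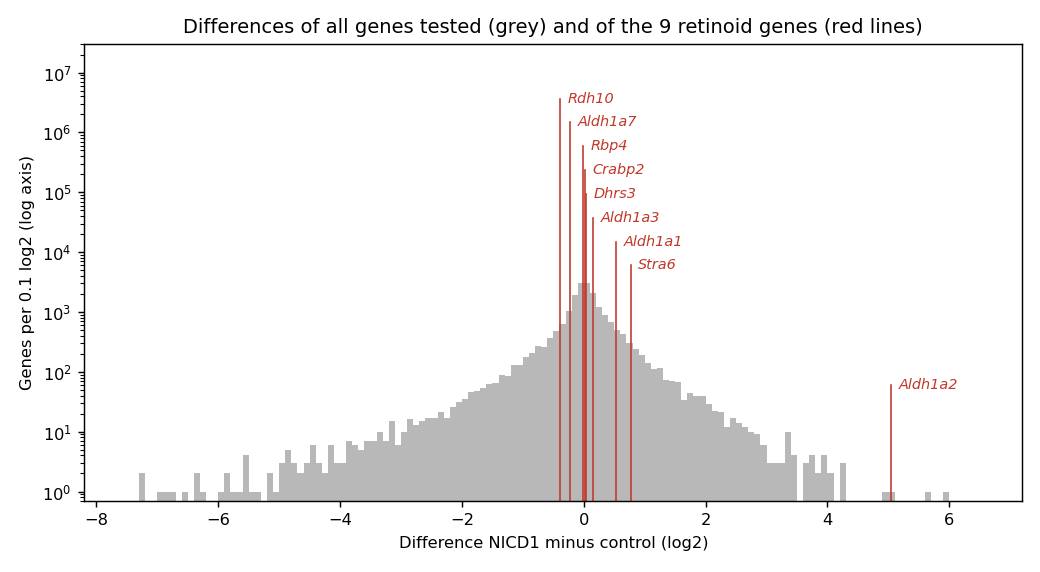
Histogram of the difference NICD1 minus control (log2, x axis) for the 19937 genes tested, with the number of genes per bin on a log axis. Red lines mark the 9 retinoid genes, and the height of a line only separates the names. Aldh1a2 at 5.04 lies at the right end, and the other 8 lie between -0.38 and 0.77.

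Profiles over the 6 arrays were compared with values centred on each gene's mean. The 9 retinoid genes and predicted genes without an established name were left out as neighbours. Of the rest, the 5 genes nearest to Aldh1a2 were Nrarp, Cdh6, Fgb, Cyp2f2 and Jag1. Their Euclidean distances were 0.95, 1.12, 1.13, 1.26 and 1.27 log2, over 6 arrays. Nrarp, a feedback inhibitor of Notch signalling, had 10.56, 10.45 and 10.39 in NICD1, against 5.002, 4.47 and 4.95 in controls. Cdh6 had 9.77, 9.06 and 9.82 in NICD1, against 5.28, 5.46 and 5.08 in controls. Fgb had 8.54, 8.23 and 8.66 in NICD1, against 4.42, 4.24 and 3.92 in controls. Cyp2f2 had 8.82, 9.89 and 10.10 in NICD1, against 4.66, 4.79 and 4.59 in controls. Jag1, a Notch ligand, had 10.66, 10.61 and 10.56 in NICD1, against 6.38, 6.74 and 6.58 in controls. The distances mainly reflect the size of the group difference, which for these 5 genes lay between 4.05 log2 in Jag1 and 5.66 log2 in Nrarp. For Rdh10, the lowest of the 9 differences, the 5 nearest genes were Ugt2b36, Pgrmc1, Sf3b5, Olfr362 and Sco1, at distances of 0.07 to 0.10 log2 and with differences between -0.42 and -0.34.

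**Figure D3:**
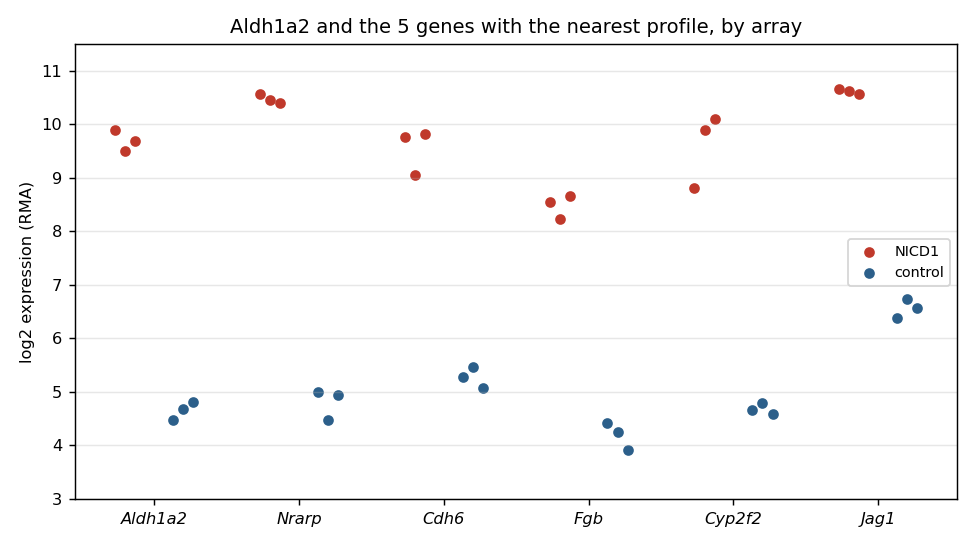
Log2 expression (y axis) of Aldh1a2 and of the 5 genes with the nearest profile over the 6 arrays. The other retinoid genes of the 9 and predicted genes without an established name were left out. NICD1 is in red to the left and control in blue to the right for each gene. Each point is an array. NICD1 arrays stand above control arrays in all 6 genes, with Cyp2f2 lowest in NICD1 replicate 1 (8.82).

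The other genes of the retinoid pathway were taken from 6 lists with 58 genes, of which 55 were measured. In the limma fit, 7 of them rose, 12 fell and 36 did not pass, with a median difference of -0.07 log2. Over all genes tested 17.8% were higher and 14.9% lower, with a median of 0.015. These lists too were chosen with earlier results of these data known. The p-values and counts given for them below therefore describe the genes and are no independent test. Among called genes whose groups did not overlap, the largest falls were those of Aldh8a1, Bco2, Adh1 and Dhrs4, enzymes of retinoid and carotenoid oxidation and reduction. Ttr (-2.95), whose groups overlapped, was also called lower.

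Of 6 retinoid receptors, 2 rose, 1 fell and 3 did not pass. Rxra, the common partner of the retinoic acid receptors, fell to 6.66, 6.62 and 6.57 in NICD1, against 7.57, 7.45 and 7.33 in controls (-0.83 log2, SE 0.10, adjusted p = 0.000218). Rara had 6.57, 6.38 and 6.54 in NICD1, against 6.00, 5.98 and 5.95 in controls, a rise of 0.52 log2 (SE 0.10, adjusted p = 0.003). Rarb, a receptor gene that retinoic acid itself induces, had 6.12, 6.59 and 5.64 in NICD1, against 5.50, 5.41 and 5.38 in controls. It rose by 0.69 log2 (SE 0.20, adjusted p = 0.028), with NICD1 arrays spread over almost 1 log2 unit. That call was lost on leaving out 5 of the 6 arrays, all but NICD1 replicate 3, with differences from 0.45 to 0.72 in those 5, and was also lost after centring (0.57) or quantile normalization (0.58). Rarg differed by 0.21 (95% confidence interval -0.004 to 0.43) and Rxrg by -0.21 (-0.52 to 0.10), and neither passed.

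Of the 15 retinoic acid responsive genes with a value, 3 were higher, 2 lower and 10 uncalled, with a median difference of 0.02 log2. These counts lie near the shares over all genes, 17.8% higher and 14.9% lower, and nothing is read from them. The homeobox gene Hoxb4 rose to 7.58, 7.46 and 7.17 in NICD1, against 5.93, 6.23 and 6.10 in controls (1.32 log2, SE 0.13, adjusted p = 6.55e-05). Hoxa5, of the same family, rose by 0.55 log2 (SE 0.12, adjusted p = 0.00597), and the nuclear receptor corepressor gene Nrip1 by 0.39 (SE 0.12, adjusted p = 0.0262). The call of Nrip1 was lost without NICD1 replicate 2 (0.38) or 3 (0.35) or control replicate 2 (0.38) or 3 (0.32), after centring (0.27), and with the replicate number as a block (0.39). Meis2 and Meis1, homeodomain partners of Hox proteins, fell. Meis2 had 6.00, 5.61 and 5.08 in NICD1, against 6.68, 6.71 and 6.76 in controls (-1.15 log2, SE 0.20, adjusted p = 0.00167), and Meis1 differed by -0.42 (SE 0.11, adjusted p = 0.0163). The call of Meis1 was lost without NICD1 replicate 2 (-0.35) or control replicate 3 (-0.39). The chemerin gene Rarres2 differed by 0.60 (95% confidence interval 0.08 to 1.13, adjusted p = 0.0803) and the transglutaminase Tgm2 by 0.31 (0.03 to 0.58, adjusted p = 0.0936), and neither passed. Rarres2 passed without NICD1 replicate 1 (0.84) and with the replicate block (0.60), and differed by 0.30 without NICD1 replicate 2, while Tgm2 passed after quantile normalization (0.59).

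None of the 3 genes of retinoic acid breakdown passed. Cyp26b1 had 4.76, 5.02 and 5.22 in NICD1, against 5.76, 4.89 and 5.16 in controls, a difference of -0.26 log2 (95% confidence interval -0.74 to 0.21). It was -0.02 without control replicate 1 and -0.45 without control replicate 2. Cyp26a1, which retinoic acid strongly induces in many tissues, had 3.11, 3.60 and 3.56 in NICD1, against 3.62, 3.60 and 3.39 in controls, all among the dimmest 25% of genes. Its difference was -0.11 (95% confidence interval -0.44 to 0.22).

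Of 18 further retinol and retinal dehydrogenases, 2 rose, 5 fell and 11 did not pass. Aldh8a1, an aldehyde dehydrogenase that acts on 9-cis-retinal, fell to 6.04, 7.16 and 7.01 in NICD1, against 9.56, 10.03 and 9.97 in controls (-3.12 log2, SE 0.27, 8.66-fold, adjusted p = 2.42e-05). Adh1, a cytosolic alcohol dehydrogenase that oxidises retinol, had 10.29, 9.61 and 9.63 in NICD1, against 11.33, 11.77 and 11.39 in controls (-1.65 log2, SE 0.20, adjusted p = 0.000173). The retinal reductase Dhrs4 had 7.90, 8.12 and 8.15 in NICD1, against 9.32, 9.49 and 9.55 in controls (-1.40 log2, SE 0.11, adjusted p = 1.7e-05). For all 3 genes the groups were separated by more than 1 log2 unit. Rdh14 fell by 0.72 log2 and Rdh7 by 0.44, while Dhrs7 rose by 0.85. Rdh7 was among the dimmest 25% of genes on all 6 arrays, and its call was lost without NICD1 replicate 1 (-0.33), control replicate 1 (-0.45) or control replicate 2 (-0.38).

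In retinyl ester storage and carotenoid cleavage, 3 of 6 genes fell, 0 rose and 3 did not pass. Bco2, a mitochondrial enzyme that cleaves carotenoids, fell to 3.45, 3.35 and 3.50 in NICD1, against 5.39, 6.28 and 6.11 in controls (-2.49 log2, SE 0.20, adjusted p = 1.79e-05). On all 3 NICD1 arrays it was among the dimmest 25% of genes, so the size of its fall may be understated. The hormone-sensitive lipase Lipe fell by 0.49 log2 (adjusted p = 0.01) and the acyltransferase Dgat1 by 0.47 (adjusted p = 0.0156). The call of Dgat1 was lost without control replicate 2 (-0.42) or 3 (-0.40). Lrat, the main retinol esterifying enzyme, differed by -0.09 (95% confidence interval -0.34 to 0.16).

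Of 7 other binding and transport genes, 1 fell and 6 did not pass. Ttr, the plasma partner of Rbp4, had 5.08, 4.50 and 5.02 in NICD1, against 5.08, 9.24 and 9.15 in control replicates 1 to 3. Control replicate 1 thus lay with the NICD1 arrays, more than 4 log2 units under the other two controls. The fitted difference of -2.95 log2 (SE 0.92, adjusted p = 0.0349) was lost as a call on leaving out 5 of the 6 arrays, all but control replicate 1, and under the trended and robust variance model. Leaving out each array it ran from -4.32 to -2.24. Stra6l, a relative of Stra6, differed by -0.26 (95% confidence interval -0.51 to -0.02, adjusted p = 0.104), and passed as lower after centring (-0.39) and after quantile normalization (-0.37).

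**Figure D4:**
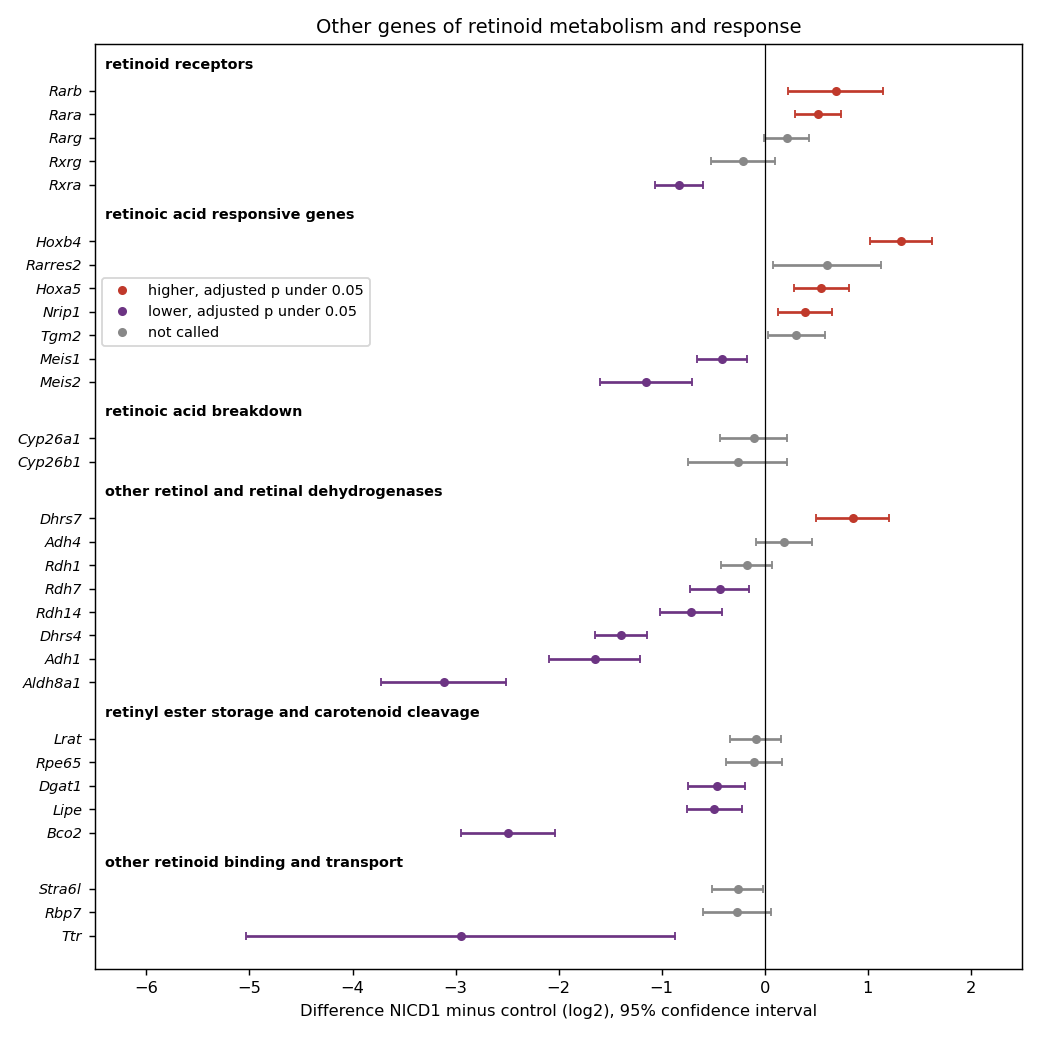
Difference NICD1 minus control (log2, x axis) with its 95% confidence interval for the named genes of the 6 lists of other retinoid genes, coloured by whether they passed an adjusted p of 0.05. Aldh8a1 (-3.12), Bco2 (-2.49), Adh1 (-1.65) and Dhrs4 (-1.40) fell most among genes with separate groups, and Hoxb4 (1.32) rose most.

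Markers of other kidney cells moved with the group too, and their part in the differences was not tested. Over all genes 17.8% were called higher and 14.9% lower. All 10 proximal tubule markers fell, and their values, summed after return from the log2 scale to intensity units, ran from 1480 to 3020 in NICD1 against 19100 to 20100 in controls. The anion transporters Slc22a6 (-5.51 log2) and Slc22a8 (-5.41) fell most. Of 8 macrophage and dendritic cell markers 6 rose and 0 fell, led by Lyz2 (3.94 log2) and Itgam (2.41). Csf1r (-0.05) and Flt3 (-0.19) did not pass. The sums ran from 940 to 1780 in NICD1 against 322 to 338 in controls, and the brightest genes weigh most in such sums. Of 8 fibroblast and stroma markers 4 rose and 1 fell, with sums from 1490 to 2270 in NICD1 against 669 to 767 in controls, led by the collagens Col1a1 (2.96) and Col3a1 (2.01). Without those 2 genes, a split made after their values were seen, the sums of the other 6 overlapped, at 297 to 600 in NICD1 and 456 to 492 in controls. Of those 6, Postn (0.77) and Pdgfrb (0.70) rose and Tcf21, a stromal transcription factor, fell (-0.71). Dcn (-0.77), Lum (-0.30) and Pdgfra (-0.07) did not pass. As background, dendritic and stromal cells make Aldh1a2 in other organs. Of 8 mesothelium markers 1 rose and 1 fell, with sums from 570 to 682 in NICD1 against 586 to 724 in controls. The riser was Krt19 (3.38 log2), also a keratin of ducts, and Gpm6a fell (-1.27), while Msln, the defining mesothelial gene, lay under its array's median on all 6 arrays. Of 7 measured podocyte markers 1 rose and 4 fell, with sums from 287 to 323 in NICD1 against 472 to 546 in controls, and Podxl (-1.74) and Synpo (1.09) moved most. Of 6 urothelium markers 1 rose and 0 fell, with sums from 199 to 263 in NICD1 against 145 to 220 in controls. Krt20 was the riser (1.34), and Krt5 differed by 0.48 (adjusted p = 0.323). RMA values do not reach 0, so no marker is listed at 0.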

How the data were processed

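Total RNA of whole kidney was labelled with biotin and hybridised to Affymetrix arrays, and raw array files were normalized with RMA16 in GeneSpring, per the labels' protocols. The values the authors deposited are log2 expression per probe set, from 1.40 to 13.67. The GeneSpring version, scan dates and detection calls are not given in the sources used here, so scan batch was not tested. Of 34760 probe sets, 6573 in the control range were left out, 21640 had a single symbol in the platform annotation, 1321 had several and were not named, and 5226 had none. The brightest probe set per gene gave 19937 genes. Entrez identifiers matched a GRCm38.p6 gene table for 99.6%.

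The groups were compared over all genes by limma 3.58.1 under R 4.3.3 (lmFit, eBayes, two-sided). P-values were adjusted by Benjamini-Hochberg over the whole table, and a gene was called at an adjusted p under 0.05. Differences are NICD1 minus control. The procedure was tested on simulated data. The 9 genes and all lists were chosen with earlier results of these data known. Genes of the lists were named by a rule, called genes up to 6 a list by lowest p and up to 2 uncalled ones. List genes without a value were not analysed here. Of each marker list the 2 genes with the largest differences were named. Msln, Slc34a1, Uty, Xist, Csf1r, Flt3 and the stroma markers besides the collagens were named after their values were seen. Replicate numbers did not pair the arrays. Alternatives were the mean over probe sets, median centring, quantile normalization, a replicate block, a trended and robust variance, removal of the dimmest 40% of genes, a minimum of 2-fold, and leaving out each array in turn.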

Additional observations from a re-analysis of the deposited data

How the results depend on the processing

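Over all genes the calls at a change of at least 2-fold were 927 higher and 1057 lower, and leaving out each array in turn gave 2816 to 3488 higher and 2459 to 2811 lower. Of the 9 retinoid genes, 1 was called higher and 0 lower at 2-fold or more. After quantile normalization 3 of the 9 were called higher and 0 lower, against 3595 higher and 3001 lower over all genes. Under that setting Dhrs3 gained a call as higher, while Aldh1a1 and Rdh10 lost theirs. Leaving out each array gave 2 to 3 higher and 0 to 1 lower, with 0 lower without control replicate 2. Since these genes were chosen with this contrast in view, their counts are no test. The differences of the 9 genes stayed within the spread of the arrays, their pooled SD, in 101 of 105 recalculations. The exceptions were Rbp4 (-0.14) and Rdh10 (-0.51) after centring, and Rdh10 (-0.13) and Dhrs3 (0.46) after quantile normalization, and the cause was not tested. Most of the other recalculations could not move. Each of these genes has a single probe set, and a block, another variance model or a gene filter leaves a difference as it is. Leaving out 1 of 3 arrays cannot shift a group mean by as much as that SD. Only centring and quantile normalization could show a move. Leaving out each array, Aldh1a2 kept a difference of 4.94 to 5.14. Of the other retinoid genes, 4 were higher after centring, which moved the median of all genes to -0.11, and 1 higher and 6 lower at 2-fold or more, while leaving out each array gave 4 to 6 higher and 9 to 12 lower. The numbers did not pair the arrays: deviations of same-numbered arrays correlated at -0.07, -0.01 and -0.07. With the replicate block, 3 and 1 retinoid genes and 6 and 12 of the other retinoid genes were called higher and lower, against 3219 and 2762 over all genes. Genes near the floor of the arrays, among them Rbp4, Crabp2 and Cyp26a1, are where signal over background limits what can be seen.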
